A study of Mus musculus with 12 samples.

Results

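The metallothionein genes Mt1, Mt2 and Mt3 were followed in single cells of the mouse striatum, at an early postnatal stage and at 3 months of age (3m). They are 3 of the 31053 genes in the count table and were chosen by name, as the family members known in brain. Wild type striatum was dissociated, astrocytes were enriched by magnetic sorting for their surface antigen ACSA2, and transcripts of single cells were counted with the 10x Genomics 3ʹ assay. The labels name 2 early postnatal libraries (PN1 and PN2) and 2 libraries at 3m (3m1 and 3m2), sequenced in 12 runs. The labels give PN1 as postnatal day 7 in the title and day 3 in the age field, and PN2 the other way round, so both are called early postnatal here. Of these days the study's text names the earlier one only for the striatal preparations, and which library the later label concerns was not resolved. The strain is labelled as mixed. The study's methods describe male C57BL/6Jax mice, tissue of several animals pooled per preparation, dissection without the subventricular zone and a red blood cell removal step. Each library is therefore a pool, no library can be tied to 1 animal, and all cells other than astroglia are those that came through a selection for astrocytes.

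Metallothioneins are small, cysteine-rich proteins that bind zinc and copper through their cysteine thiols and take part in metal storage, metal exchange and scavenging of oxidants. Mt1 and Mt2 are made in many tissues and are induced by zinc and other heavy metals through the zinc-sensing transcription factor MTF1, which binds metal response elements, and also by glucocorticoids and oxidative stress. Mt3 is largely restricted to the nervous system, was first described as a growth inhibitory factor, and is known for weaker induction by metals than its relatives. In brain, Mt1 and Mt2 are known above all from astrocytes.

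With their relative Mt4, the 3 genes form a row on the plus strand of chromosome 8 (GRCm38, GENCODE annotation), in the order Mt4, Mt3, Mt2, Mt1. Mt3 (ENSMUSG00000031760.9) spans 94152607 to 94154146, Mt2 (ENSMUSG00000031762.7) spans 94172664 to 94173568 and Mt1 (ENSMUSG00000031765.8) spans 94179082 to 94180327. Each has 3 exons. No other annotated gene lies within the gaps, which measure 18517 bases between Mt3 and Mt2 and 5513 bases between Mt2 and Mt1. Mt4, the family member known from stratified squamous epithelia, had 0 UMIs (unique molecular identifiers, 1 per captured transcript) in each of the 4 libraries.

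The coding sequences are printed to show what the family shares and how Mt3 departs from it. They were cut from the GRCm38 genome by the GENCODE annotation, 5ʹ to 3ʹ, and the capitals mark the codons TGT and TGC, which encode cysteine.
Mt1: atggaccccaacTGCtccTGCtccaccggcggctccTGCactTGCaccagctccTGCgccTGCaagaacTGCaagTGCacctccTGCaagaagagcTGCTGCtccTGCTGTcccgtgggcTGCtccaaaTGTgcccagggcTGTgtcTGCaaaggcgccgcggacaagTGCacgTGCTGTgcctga
Mt2: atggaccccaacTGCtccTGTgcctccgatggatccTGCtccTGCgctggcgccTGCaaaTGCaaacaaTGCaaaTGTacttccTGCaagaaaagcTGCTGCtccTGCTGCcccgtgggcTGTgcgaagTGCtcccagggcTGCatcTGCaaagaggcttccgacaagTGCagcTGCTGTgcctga
Mt3: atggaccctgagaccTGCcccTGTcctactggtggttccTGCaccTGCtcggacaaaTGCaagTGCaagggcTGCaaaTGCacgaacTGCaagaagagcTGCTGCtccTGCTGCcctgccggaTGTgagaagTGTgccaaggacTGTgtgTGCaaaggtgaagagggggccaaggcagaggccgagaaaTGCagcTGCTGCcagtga
Each of the 3 reading frames held 20 cysteine codons, of 61 codons in Mt1 and in Mt2 and 68 in Mt3. Aligned end to end, Mt1 and Mt2 were identical at 79.6% of bases, Mt1 and Mt3 at 66.2%, and Mt2 and Mt3 at 67.6%. The Mt3 frame was longer by 21 bases. Reads of the 3 genes can be told apart, since no transcript of any other annotated gene shared a run of 50 bases with any of them. Gm45774, an antisense gene over Mt2, had between 3 and 10 UMIs per library.

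The bases just before the annotated start of each gene are printed to show matches to the metal response element. Capitals mark the core of the metal response element, searched on both strands as TGCACNC and TGCGCNC. Each window runs up to the first base transcribed in either the GENCODE or the RefSeq annotation (RefSeq promoter sequences, GRCm38.p6, plus strand): chr8:94178839-94179081 for Mt1, chr8:94172368-94172617 for Mt2 and chr8:94152357-94152606 for Mt3.
Mt1: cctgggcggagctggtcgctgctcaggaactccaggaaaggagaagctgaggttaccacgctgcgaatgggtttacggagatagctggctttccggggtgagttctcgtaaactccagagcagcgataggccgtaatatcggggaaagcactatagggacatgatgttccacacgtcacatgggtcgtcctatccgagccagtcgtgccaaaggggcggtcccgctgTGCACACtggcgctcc
Mt2: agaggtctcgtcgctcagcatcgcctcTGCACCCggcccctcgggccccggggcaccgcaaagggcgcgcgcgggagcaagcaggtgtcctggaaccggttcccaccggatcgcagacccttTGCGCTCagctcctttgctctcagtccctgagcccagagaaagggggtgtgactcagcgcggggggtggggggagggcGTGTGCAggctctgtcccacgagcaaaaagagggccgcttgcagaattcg
Mt3: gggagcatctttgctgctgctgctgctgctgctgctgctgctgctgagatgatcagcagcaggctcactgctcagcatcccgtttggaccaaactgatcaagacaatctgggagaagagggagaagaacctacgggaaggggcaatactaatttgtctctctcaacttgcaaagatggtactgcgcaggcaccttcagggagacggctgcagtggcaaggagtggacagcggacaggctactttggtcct
The Mt1 window held 1 match, the Mt2 window held 3 and the Mt3 window held 0. Of 32851 RefSeq promoter windows of the same kind, 21.4% held at least 1 match and 1.26% at least 3. The searched letters also occurred inside the transcripts: the first 184 transcribed bases of 1 annotated transcript per gene held 4 matches in Mt1, 3 in Mt2 and 3 in Mt3. At least 3 matches occurred in 0.627% of 21217 protein-coding transcripts searched in the same way. The counts of the printed windows leave out such matches past the annotated start. A match of letters is a description and says nothing about binding.

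Of 4245 barcodes in the table, 3163 passed the study's filters (at least 500 genes and at most 10% mitochondrial UMIs), with 555 cells in PN1, 724 in PN2, 1120 in 3m1 and 764 in 3m2. The kept cells held between 6991930 and 11276224 UMIs per library, and the median UMIs per cell ran from 7738 to 11640. Marker genes assigned 2942 cells to a class, and no metallothionein was among the markers. The medians of detected markers were 10 of 11 in astroglia-gated cells, 9 of 9 in oligodendrocyte-gated and endothelial-gated cells, 8 of 10 in mural-gated cells (pericytes and smooth muscle) and 6 of 7 in gated oligodendrocyte precursor cells (OPC). PN2 and 3m2 shared 95 cell barcodes, against at most 2 in any other pair of libraries, and 13 of the 49 endothelial-gated cells of 3m2 carried a shared barcode. Both copies stayed in the values below, and results were also computed without the copy of lower UMI count.

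Mt1 and Mt2 were most abundant in astroglia and in ependymal cells, and their levels were higher at 3m than in the early postnatal libraries in astroglia and in endothelial cells, but not detectably so in mural cells. Mt3 was abundant in astroglia at both ages and stood far lower in vessels. Levels are given as CPM, the UMIs of a gene per 1000000 UMIs in the summed cells of a class in a library. In 3ʹ data 1 transcript gives 1 tag whatever its length, so CPM of different genes can be set side by side without a correction for length. How well the transcripts of each gene were captured was not measured.

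In astroglia, Mt1 stood at 1317 CPM in PN1, 1250 in PN2, 9155 in 3m1 and 8238 in 3m2. Both 3m libraries lay above both early postnatal libraries, with a gap much wider than the spread within either age. The study reports putative proliferating progenitors and found early postnatal and adult astrocytes in separate clusters. The astroglia class here need not hold the same kinds of cell at both ages. Like Mt1, the 11 markers that define the class summed to more at 3m, with 8595, 6124, 18749 and 19694 CPM. So did the 9 neuron markers in these cells, with 15.3, 14.9, 116 and 103 CPM, and the 9 oligodendrocyte markers, with 16.3, 15.1, 776 and 653 CPM. The 7 OPC markers summed to less at 3m, with 380, 294, 83.3 and 81.0 CPM. The part of these shifts in the change of the metallothioneins was not tested. The Mt1 means were 1284 ± 47.6 CPM and 8696 ± 648 CPM (SD, n = 2 libraries each), a 6.77-fold difference. Mt2, the less abundant of the inducible pair, stood at 273, 280, 1066 and 1109 CPM in the same order. Its libraries were again separated by age, and the means of 277 ± 4.71 and 1088 ± 29.8 CPM differed 3.93-fold. Mt3 stood at 5787, 5638, 8904 and 7735 CPM. The groups did not overlap for Mt3 either, yet its means of 5713 ± 106 and 8319 ± 826 CPM (SD, n = 2) differed only 1.46-fold. These ratios of CPM do not include the scaling factor of the test given next.

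The summed counts were tested across all genes with edgeR's quasi-likelihood test, and a gene was called at an adjusted p of at most 0.05 and a change of at least 1 on the log2 scale. In astroglia Mt1 rose by a log2 fold change of 3.04 (SE 0.33, adjusted p = 0.00202) and Mt2 by 2.26 (SE 0.20, adjusted p = 0.00122). The log2 fold change of Mt3 was 0.82 (SE 0.33, edgeR adjusted p = 0.0951), which was not called. In DESeq2 it was 0.77 (adjusted p = 0.0016), where only the limit of 1 on the change kept it uncalled. With no scaling factor it was 0.54 (edgeR adjusted p = 0.199). Among all 11649 genes tested in astroglia 26.2% were called and 14.3% were called higher at 3m, and in 26.7% both 3m libraries lay above both early postnatal ones. Under a stricter gate, which left out cells with markers of other classes, Mt3 had a log2 fold change of 1.05 (edgeR adjusted p = 0.0341) and was called. Nothing says that the 2 libraries of an age came from separate litters, so these p-values measure the spread between the libraries at hand.

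**Figure D1:**
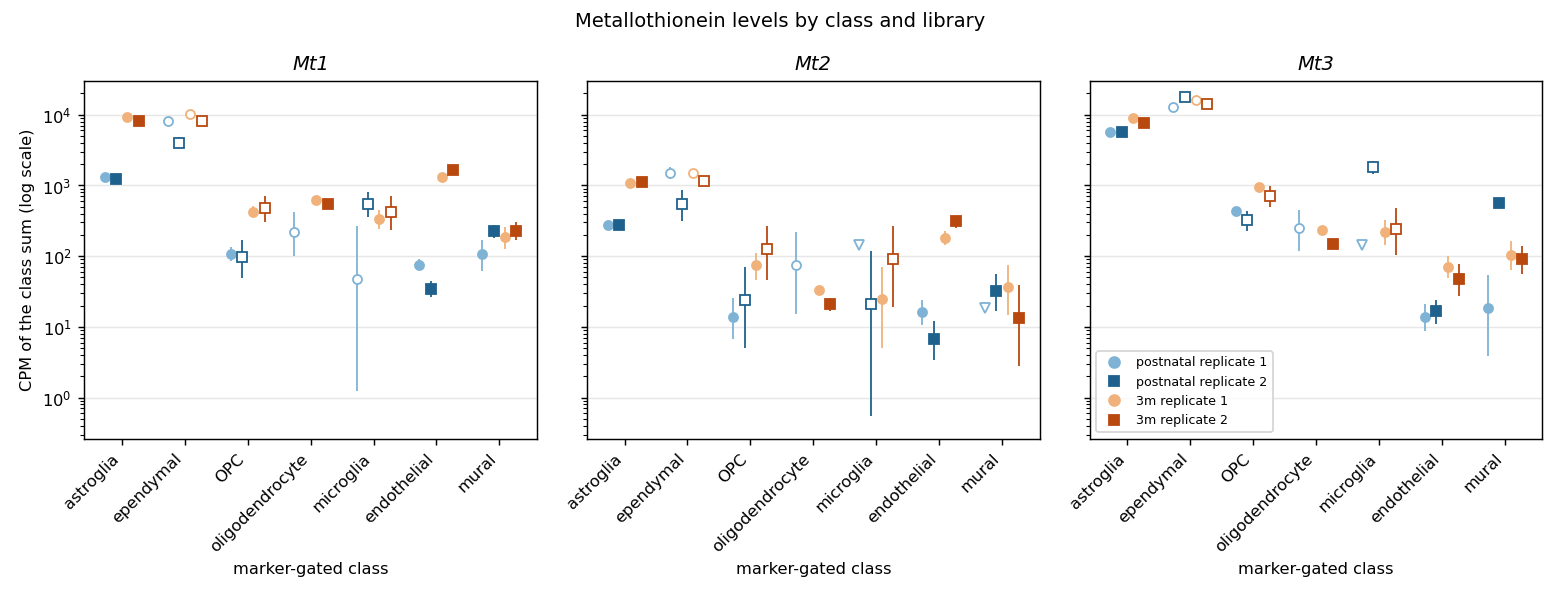
CPM of Mt1, Mt2 and Mt3 (vertical axis, log scale) in the summed cells of each marker-gated class (horizontal axis) and library (colour and shape). Bars are exact 95% Poisson intervals of the counts, open symbols are classes under 20 cells and triangles mark the limit that a count of 0 allows. Within each library astroglia and ependymal cells hold the highest levels of all 3 genes, and in endothelial cells the 3m symbols of Mt1 and Mt2 lie well above the early postnatal ones.

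The members changed their balance within astroglia. There were 0.228 and 0.222 UMIs of Mt1 per UMI of Mt3 in PN1 and PN2, against 1.03 and 1.07 in 3m1 and 3m2. By UMIs, Mt3 was thus the leading metallothionein in early postnatal astroglia, and Mt1 and Mt3 stood level at 3m. Mt1 also gained on its closest relative, with 4.82 and 4.46 UMIs per UMI of Mt2 in the early postnatal libraries and 8.58 and 7.43 at 3m. These ratios come from sums of at least 1037 UMIs per gene.

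The rise of Mt1 was spread over most astroglia-gated cells. After each cell was thinned to 2000 UMIs, the median astroglia-gated cell held 2 UMIs of Mt1 in PN1, 2 in PN2, 17 in 3m1 and 15 in 3m2. The 10% of cells with the highest counts held 29.5% and 30.5% of the Mt1 UMIs in the early postnatal libraries and 21.9% and 24.4% at 3m. For Mt2 the medians were 0, 0, 2 and 2 UMIs, and for Mt3 they were 11, 12, 19 and 15. The upper 10% of early postnatal cells began at 6 UMIs of Mt1 in both libraries, and the lowest 10% of 3m cells ended at 7 and 6 UMIs.

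**Figure D2:**
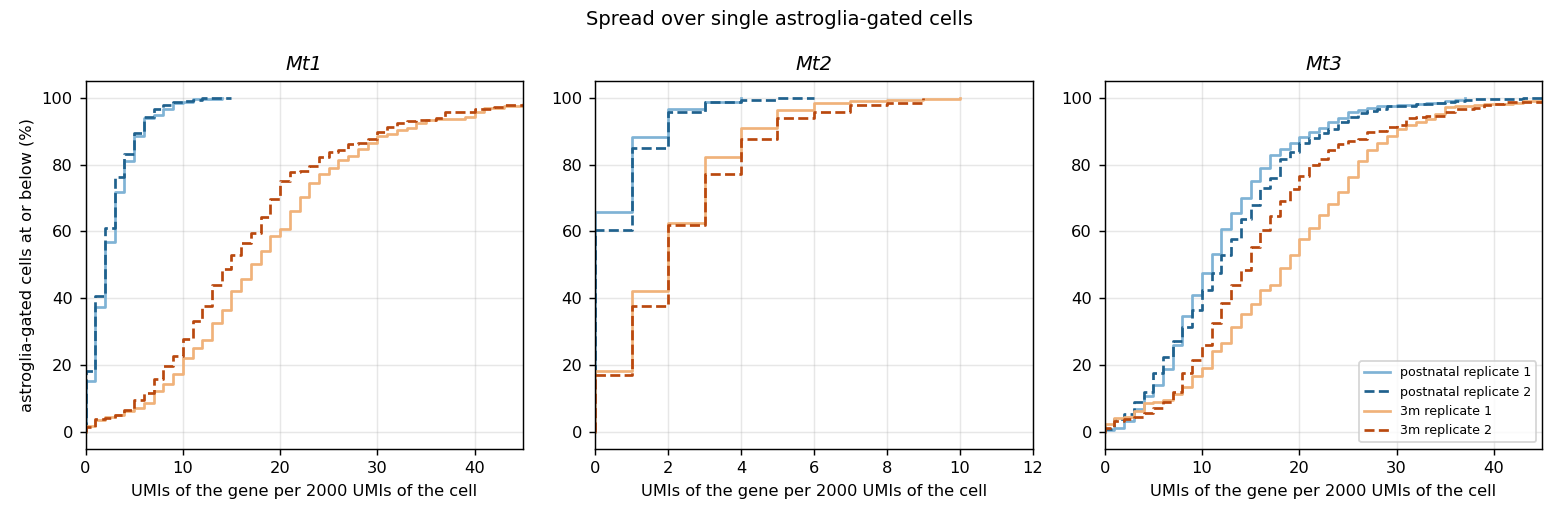
Cumulative share of astroglia-gated cells (vertical axis, %) at or below a number of UMIs of each gene per 2000 UMIs of the cell (horizontal axis), 1 line per library. For Mt1 the lines of 3m1 and 3m2 (medians 17 and 15 UMIs) lie far to the right of PN1 and PN2 (median 2 each), while the 4 lines of Mt3 run closer together (medians 11, 12, 19 and 15).

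The 3 genes varied together from cell to cell, and more so at 3m. Across thinned astroglia-gated cells of 1 library (308 in PN1, 497 in PN2, 280 in 3m1 and 260 in 3m2), Spearman's rho of Mt1 with Mt3 was 0.34, 0.30, 0.68 and 0.65. With Mt2 it was 0.21, 0.25, 0.40 and 0.39. Between Mt2 and Mt3 it was 0.14, 0.22, 0.39 and 0.35. These are descriptions over cells that share a library, a dissociation and a total of 2000 UMIs, and sparse counts, above all of Mt2 in the early postnatal libraries, limit how high rho can be. Mt1 followed the summed counts of 18 immediate early and heat shock genes with a rho of 0.32 in 3m1 and 0.45 in 3m2, against 0.01 in PN1 and 0.00 in PN2. For Mt2 these values were 0.24 and 0.30 at 3m and 0.02 and -0.03 before. For Mt3 they were 0.32 and 0.39 at 3m, and -0.12 and -0.18 before. The rho of Mt1 with the cell's original UMI total lay between -0.04 and 0.05. For Mt3 it was -0.23, -0.19, -0.08 and -0.11 in the library order above.

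Immediate early and heat shock genes, which respond within minutes to tissue dissociation, differed between the ages in the opposite direction to Mt1. Their summed level in astroglia was 7992 CPM in PN1 and 6795 in PN2, against 1688 in 3m1 and 1218 in 3m2. In endothelial cells the sums were 4525, 4274, 5255 and 5007 CPM, with no such gap between ages. Mitochondrial transcripts made up 2.77% and 2.56% of astroglia UMIs in PN1 and PN2 and 4.90% and 5.67% in 3m1 and 3m2. The part of these differences in the change of Mt1 and Mt2 was not tested.

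Detection of Mt1 and Mt2 in astroglia was higher at 3m, as their levels were. Of astroglia-gated cells thinned to 2000 UMIs, 84.7% in PN1, 81.7% in PN2, 98.2% in 3m1 and 98.5% in 3m2 held at least 1 UMI of Mt1. For Mt2 the shares were 34.1%, 39.4%, 81.8% and 83.1%. For Mt3 the shares were 99.4%, 99.0%, 97.5% and 98.8%, all near the ceiling, with both 3m libraries slightly below both early postnatal ones. With 2 libraries against 2 the two-sided exact permutation test cannot go below 0.33, the value that all 3 genes gave. Unthinned shares of Mt1, at median depths of 6007 to 12427 UMIs, were 94.1%, 96.4%, 98.1% and 99.0%.

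**Figure D3:**
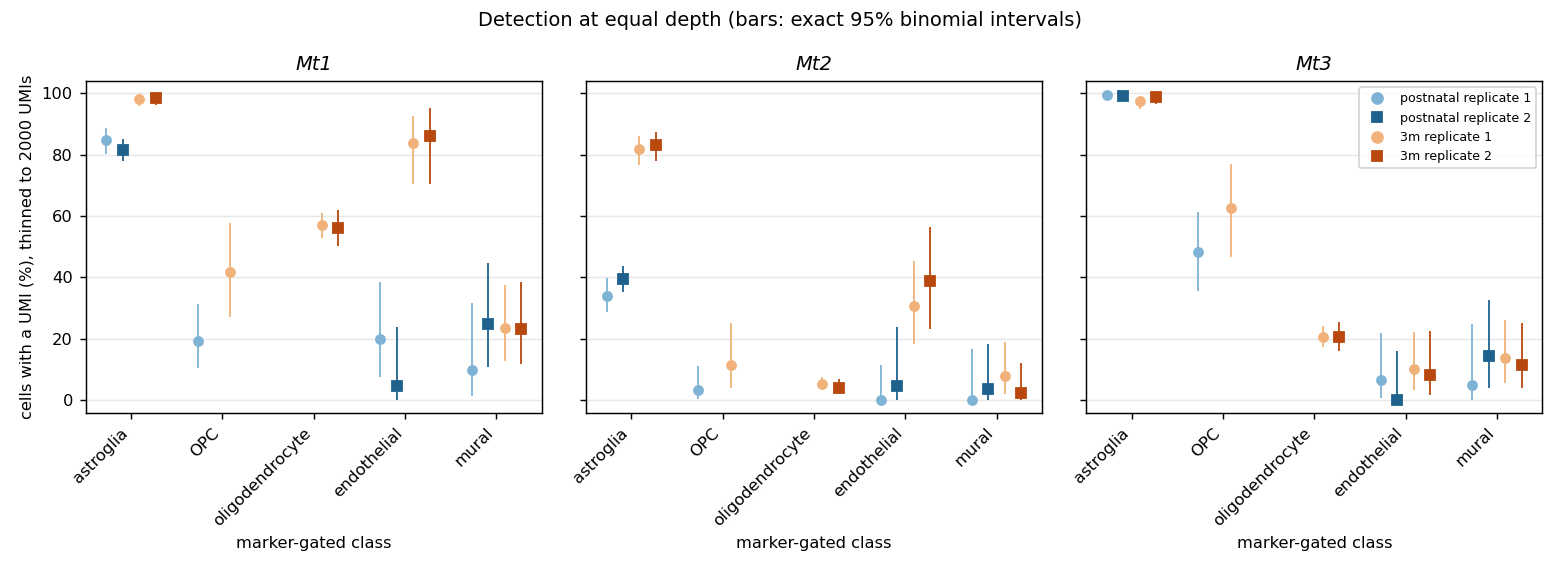
Share of cells with at least 1 UMI of Mt1, Mt2 or Mt3 (vertical axis, %) after thinning each cell to 2000 UMIs, by class (horizontal axis) and library (colour and shape). Bars are exact 95% binomial intervals. In endothelial cells Mt1 moves from 20% and 4.76% to 83.7% and 86.1%, in mural cells the 4 intervals overlap, and Mt3 stays near 100% in astroglia.

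In the endothelial-gated cells, the lining of brain vessels, Mt1 stood at 76.0 CPM in PN1, 34.7 in PN2, 1300 in 3m1 and 1677 in 3m2. Both 3m libraries lay far above both early postnatal libraries, although PN1 and PN2 differed from each other as well. The means were 55.3 ± 29.2 and 1488 ± 266 CPM (SD, n = 2), a 26.9-fold difference. Mt2 stood at 16.5, 6.81, 182 and 309 CPM, from 26, 11, 87 and 105 UMIs. The order of the ages was the same, and the means of 11.6 ± 6.82 and 245 ± 90.4 CPM differed 21.1-fold. Mt3 was scarce, at 13.9, 16.7, 71.0 and 47.1 CPM, from 22, 27, 34 and 16 UMIs, and 1 cell supplied 61.8% of its UMIs in 3m1.

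By edgeR's quasi-likelihood test all 3 genes were called higher at 3m in endothelial cells, where 17.5% of 8636 genes were called and 9.17% were called higher. The log2 fold change was 4.56 for Mt1 (SE 0.30, adjusted p = 5.08e-07) and 4.18 for Mt2 (SE 0.34, adjusted p = 2.79e-06). For Mt3 it was 1.79 (SE 0.33, edgeR adjusted p = 0.00178). Without PN1 the log2 fold changes were 5.24 for Mt1 and 4.93 for Mt2, and without PN2 they were 4.12 and 3.68, all still called by edgeR. Genes whose 3m libraries both lay above both early postnatal ones made up 39.8% of those tested. Without the shared-barcode copies Mt1 of 3m2 was 1782 CPM in place of 1677, and Mt3 of 3m2 was 34.7 in place of 47.1.

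The endothelial gate was not uniform between ages. It held 30 cells in PN1, 25 in PN2, 53 in 3m1 and 49 in 3m2, with median depths of 41590, 45586, 7173 and 5343 UMIs, and 26 of its 157 cells lay within 0.05 of the score limit. Haemoglobin transcripts, the contents of red blood cells, summed to 45888, 54661, 39959 and 32303 CPM in it, against at most 19.8 CPM in astroglia. Without the 7, 9, 2 and 6 endothelial-gated cells over 1% haemoglobin, Mt1 stood at 54.5, 51.8, 1377 and 1740 CPM, and the log2 fold changes were 4.69 for Mt1, 4.71 for Mt2 and 1.76 for Mt3, all still called by edgeR. The 9 endothelial markers themselves summed to 7120, 7042, 16660 and 20304 CPM and the 10 mural markers to 3708, 3233, 9312 and 7340 CPM, all 9 endothelial markers being detected in each library. The part of these differences in the metallothionein result was not tested.

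At equal depth, Mt1 and Mt2 were found in a larger share of endothelial-gated cells at 3m. Thinned to 2000 UMIs, Mt1 was found in 6 of 30 cells of PN1 (20%, exact 95% interval 7.71 to 38.6%), 1 of 21 in PN2 (4.76%, 0.120 to 23.8%), 41 of 49 in 3m1 (83.7%, 70.3 to 92.7%) and 31 of 36 in 3m2 (86.1%, 70.5 to 95.3%). The intervals of the 2 ages were apart. Mt2 was found in 0 of 30 thinned cells of PN1, which at this depth allows a share of up to 10%, then in 4.76%, 30.6% and 38.9%. Without thinning, at the unequal depths given above, Mt1 was found in 60%, 56%, 88.7% and 73.5% of cells and Mt2 in 40%, 20%, 60.4% and 67.3%. Mt3 was found in 6.67%, 0%, 10.2% and 8.33% of the thinned endothelial-gated cells, where the 0% of PN2 allows up to 14.3%. At full depth the deeper early postnatal cells showed Mt3 more often, in 43.3% and 48.0% of cells against 20.8% and 16.3% at 3m, so no order was read from its shares. These intervals cover counting error only.

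**Figure D4:**
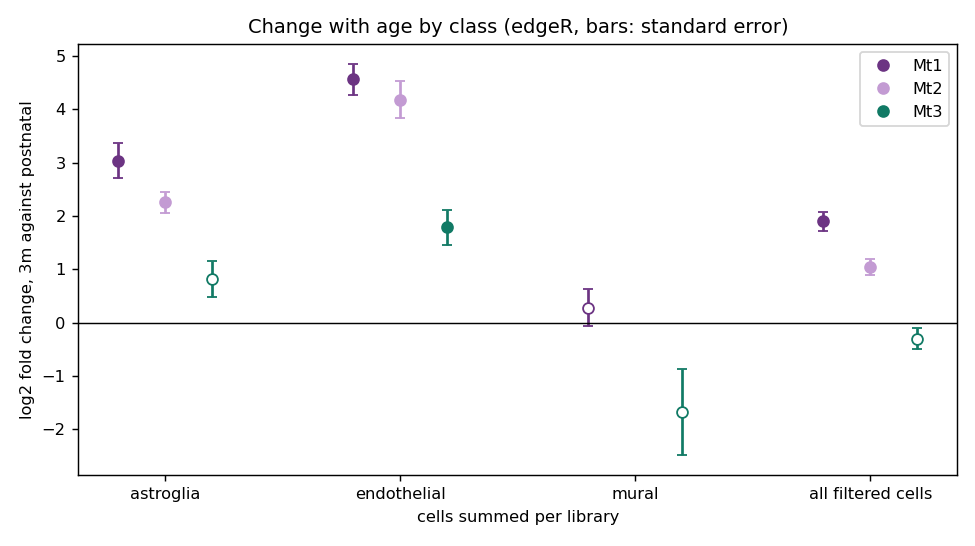
Log2 fold change of 3m against early postnatal libraries (vertical axis) from edgeR, for Mt1, Mt2 and Mt3 in astroglia, endothelial cells, mural cells and all filtered cells (horizontal axis). Bars are standard errors and filled points are called genes: Mt1 and Mt2 are called in all sums but the mural one, where Mt2 was too low to test, and Mt3 is called in endothelial cells with 1.79.

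The endothelial rise was larger than the astroglial one for Mt1 and Mt2. In 1 edgeR fit over both classes with the library as a term, the log2 fold change with age was greater in endothelial cells by 1.56 for Mt1 (SE 0.40, adjusted p = 0.00219) and by 1.91 for Mt2 (SE 0.36, adjusted p = 9.35e-06). For Mt3 the difference was 0.92 (SE 0.54, edgeR adjusted p = 0.282), which was not called. Of 12056 genes 13.6% were called for this difference, 6.88% with the larger change in endothelial cells. With no scaling factor the median difference of all genes moved from 0.01 to 0.49, and 1819 genes were called with the larger change in endothelial cells and 416 with the larger change in astroglia, against 829 and 815. The call of Mt1 was lost without 3m1 (1.79, edgeR adjusted p = 0.0967) and without 3m2 (1.30, adjusted p = 0.272), and that of Mt2 was lost in DESeq2 (1.91, adjusted p = 0.0761). Without PN1 the difference for Mt2 was 2.57. Over the 4 ways of leaving out 1 library it ran from 1.36 to 2.57 for Mt2 and from 1.06 to 2.02 for Mt1. Both classes come from the same 4 libraries.

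No change with age was detected in mural cells. Mt1 stood at 106 CPM in PN1, 224 in PN2, 184 in 3m1 and 230 in 3m2, from 17 to 83 UMIs. The ages overlapped. Its edgeR log2 fold change was 0.28 (SE 0.34, adjusted p = 0.635), in a comparison that called 11.6% of 4018 genes, and it was -0.10 without PN1 and 1.01 without PN2 (adjusted p = 0.0964). Mt2 had 0 UMIs in PN1, which allows up to 18.8 CPM, and 32.4, 36.7 and 13.6 CPM in the others from at most 12 UMIs, too few to be tested. Mt3 stood at 18.8, 559, 105 and 90.4 CPM, so that PN2 was far above and PN1 far below the 3m libraries. In PN2 1 cell held 35.7% of the 207 mural Mt3 UMIs, and leaving out the cells with the highest doublet scores brought that level to 365 CPM. The edgeR log2 fold change of Mt3 was -1.68 (SE 0.81, adjusted p = 0.200), -2.51 without PN1 (adjusted p = 1.52e-14), 2.38 without PN2 (adjusted p = 0.0139) and -1.54 without 3m2 (adjusted p = 0.0123), so PN2 decided its direction.

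Mural detection of Mt1 at 2000 UMIs was 10%, 25%, 23.5% and 23.3% in the 4 libraries. These shares, from 20 to 51 cells, overlapped between ages. At 3m the same depth found Mt1 in 83.7% and 86.1% of endothelial-gated cells. Whether the change with age differed between mural and endothelial cells was not tested.

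Setting the classes side by side ordered them differently for each gene. At 3m the levels of Mt1 in ependymal-gated cells (14 and 9 cells, 10302 and 8277 CPM) and astroglia (9155 and 8238) overlapped. Of the other classes with at least 20 cells in both libraries, endothelial cells came next (1300 and 1677), then oligodendrocytes, the myelinating cells, at 624 and 544. Fibroblast-gated cells (724 and 567, from 7 and 8 cells) overlapped oligodendrocytes. The 2 neuron-gated cells of 3m1 gave 2407 CPM from 8 UMIs. OPC (426 and 476, from 44 and 8 cells, with an exact 95% Poisson interval in 3m2 of 302 to 715 that spans the oligodendrocyte level), microglia, the resident macrophages (334 and 427, from 24 and 7 cells), and mural cells (184 and 230) were lowest. In 3m2 13 of the 14 Mt1 UMIs of microglia came from 1 cell, and without the cells of the highest doublet scores the level was 46.8 CPM, so microglia were not ordered against OPC or mural cells. In the early postnatal libraries endothelial cells, at 76.0 and 34.7 CPM, lay far below astroglia. In PN2 mural cells stood higher, at 224 CPM, but 1 cell held 39.8% of these UMIs and astroglia markers were raised in the same sum, as given further on. In PN1 the exact 95% Poisson intervals of endothelial cells (63.0 to 90.8) and mural cells (61.9 to 170) overlapped, 11 of the 17 mural Mt1 UMIs came from 1 cell, and OPC stood at 108 CPM.

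Mt2 followed the order of Mt1 at the top, with ependymal cells at 1504 and 1151 CPM and astroglia at 1066 and 1109 CPM at 3m. Endothelial cells followed with 182 and 309 CPM and overlapped fibroblast-gated cells at 170 and 449. OPC at 73.8 and 124 CPM, from 22 and 6 UMIs, stood above oligodendrocytes at 33.0 and 20.9. Mural sums of 36.7 and 13.6 CPM overlapped those of oligodendrocytes.

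Mt3 was highest in ependymal cells, the ciliated lining of the ventricles, with 12935 CPM in PN1, 17666 in PN2, 15980 in 3m1 and 14051 in 3m2. These sums rest on 4, 3, 14 and 9 cells but lay above astroglia in each library. Among classes of at least 20 cells, OPC came after astroglia in PN1 and 3m1, with 437 and 953 CPM. Smaller sums are left out of this order: the 2 neuron-gated cells of 3m1 gave 5114 CPM, with 16 of 17 Mt3 UMIs in 1 cell, and the 16 microglia-gated cells of PN2 gave 1812 CPM from 85 UMIs. Oligodendrocytes held 238 and 146 CPM at 3m, mural cells 105 and 90.4, from 20 UMIs each, and endothelial cells 71.0 and 47.1. The Poisson intervals of mural and endothelial cells overlapped in both libraries. Fibroblast-gated cells, at 42.6 and 47.2 CPM from 1 and 2 UMIs, could not be ordered against endothelial cells. Among the 4 classes with at least 20 cells in both 3m libraries (astroglia, oligodendrocytes, endothelial and mural cells), endothelial cells thus stood second for Mt1 at 3m and were not told apart from mural cells for Mt3.

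Each class differed from astroglia in the edgeR fits with the library as a term. Endothelial cells were lower, with log2 fold changes of -3.60 for Mt1 (SE 0.44, adjusted p = 0.000659), -3.37 for Mt2 (SE 0.49, adjusted p = 0.00143) and -7.89 for Mt3 (SE 0.37, adjusted p = 2.17e-05), where 37% of 10632 genes were called and 20.2% were higher in astroglia. Without the library term the calls of Mt1 (-2.93, adjusted p = 0.0878) and Mt2 (-2.67, adjusted p = 0.0733) were lost. Mural cells were lower, with -4.47, -5.01 and -6.15 (adjusted p of at most 0.00021 in edgeR), where 28.6% of genes were called and 16.2% were higher in astroglia. This split turned round with no scaling factor, from 1210 genes higher in mural cells and 1568 higher in astroglia to 1424 and 1346. Without PN2 the mural values were -5.16, -5.99 and -7.10, all still called.

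OPC, compared in PN1 and 3m1, were lower than astroglia, with log2 fold changes of -4.52 for Mt1 (edgeR adjusted p = 0.0133), -4.58 for Mt2 (adjusted p = 0.00113) and -3.98 for Mt3 (adjusted p = 0.0251), and 15.3% of genes were called, 8.33% higher in astroglia. With no scaling factor the split turned round, from 754 genes higher in OPC and 896 higher in astroglia to 1026 and 573. Oligodendrocytes at 3m were lower, with -3.89, -5.31 and -5.46 (edgeR adjusted p of at most 5.53e-21), and 44% of genes were called, 25.6% higher in astroglia. All 3 members were called in each of these comparisons, but without the library term all 3 calls of OPC were lost, with adjusted p of 0.128 for Mt1, 0.0671 for Mt2 and 0.123 for Mt3 in edgeR. The gap between oligodendrocytes and astroglia was smallest for Mt1.

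Droplets also capture free RNA, so the levels outside astroglia were set against those of the 11 astroglia markers in the same cells. In oligodendrocytes Mt1 stood at 6.82% of its astroglia CPM in 3m1 and 6.61% in 3m2, above the highest of the 11 markers (3.53% and 2.56%) in each library. Mt2 (3.1% and 1.89%) and Mt3 (2.67% and 1.89%) lay within the range of the markers, whose medians were 1.71% and 0.987%. Thinned to 2000 UMIs, 57.0% and 56.2% of oligodendrocytes held Mt1, against 5.31% and 4.11% with Mt2 and 20.7% and 20.5% with Mt3.

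In endothelial cells at 3m, Mt1 stood at 14.2% and 20.4% and Mt2 at 17.0% and 27.9% of their astroglia CPM. Both genes exceeded the highest astroglia marker, at 11.3% in 3m1 and 8.60% in 3m2. Mt3 stood at 0.797% and 0.610%, near the marker medians of 0.543% and 0.814%. In PN1 and PN2 Mt3 stood at 0.241% and 0.296%, beside marker medians of 0.256% and 0.442%, so the marker medians were higher at 3m together with Mt3. In PN1 and PN2, Mt1 (5.77% and 2.77%) and Mt2 (6.02% and 2.43%) fell within the marker range, which reached 11.3% and 27%. The Mt1 to Mt3 ratio was 18.3 and 35.6 in endothelial cells, 2.62 and 3.72 in oligodendrocytes and 1.03 and 1.07 in astroglia of 3m1 and 3m2. The part of free RNA in the levels outside astroglia was not tested.

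**Figure D5:**
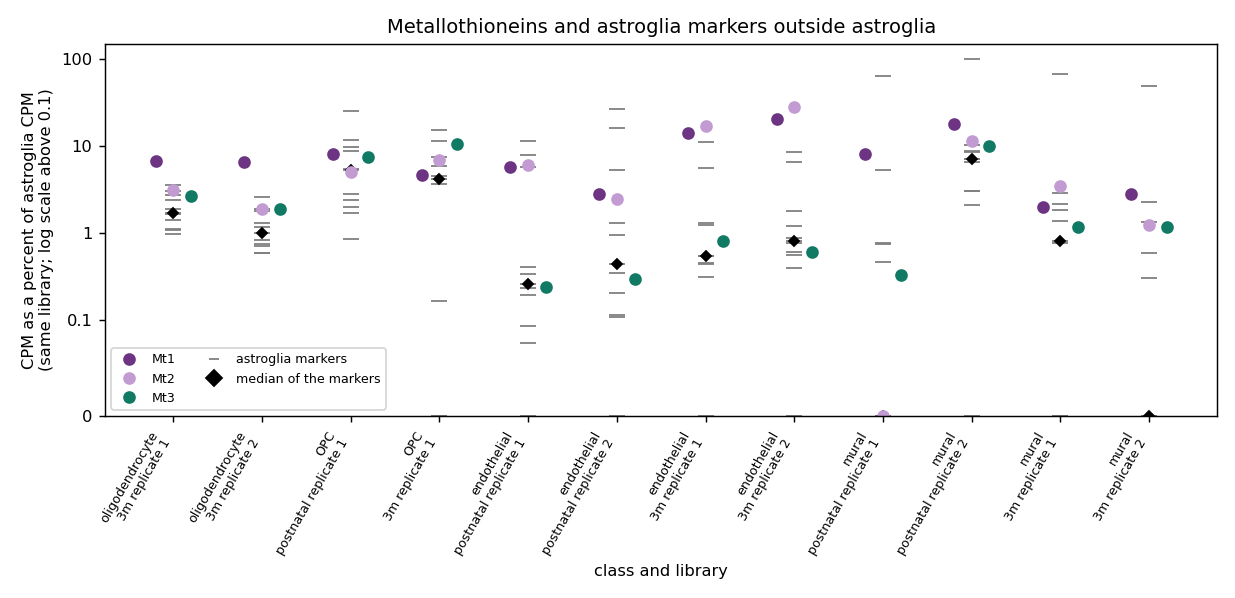
CPM in a class as a percent of the CPM of the same gene in astroglia of the same library (vertical axis, log scale above 0.1 and linear below), for Mt1, Mt2 and Mt3 and for 11 astroglia markers (grey ticks, diamond at their median), by class and library (horizontal axis). Mt1 and Mt2 stand above all markers in the 3m endothelial sums (14.2% to 27.9%), and Mt1 does in oligodendrocytes (6.82% and 6.61%).

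In OPC all 3 members lay within the range of the astroglia markers. Mt1 stood at 8.22% and 4.66%, Mt2 at 5.07% and 6.92% and Mt3 at 7.55% and 10.7% in PN1 and 3m1, beside marker medians of 5.28% and 4.2% and highest markers of 25.1% and 15.3%. In the 24 microglia-gated cells of 3m1 the members stood at 3.64%, 2.29% and 2.47%, beside a marker median of 1.69% and a highest marker of 21.2%.

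The median astroglia marker was low in most mural sums, from 0% to 0.817% in PN1, 3m1 and 3m2, although the highest marker, Atp1b2, reached 64.9%, 68.3% and 48.7%. The next markers stood at 5.35% (Slc1a3), 2.92% and 2.30% (Aldh1l1), from 4, 1 and 1 UMIs. Mt1 stood at 8.07%, 2.01% and 2.80% there, below Atp1b2 in each library and above the next marker in PN1 and 3m2. PN2 was the exception, with a marker median of 7.14%, Mt1 at 17.9%, Mt2 at 11.6% and Mt3 at 9.92% of the astroglia CPM. The mural Mt3 level of PN2 thus came with raised astroglia markers in the same cells. The part of astroglial RNA in it was not tested.

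Summed over all filtered cells, Mt1 and Mt2 were called higher at 3m and Mt3 was not called. Mt1 stood at 902, 968, 3036 and 3251 CPM, Mt2 at 195, 214, 344 and 419, and Mt3 at 3570, 4244, 2817 and 2896. The edgeR log2 fold change was 1.90 for Mt1 (SE 0.17, adjusted p = 0.000979) and 1.05 for Mt2 (SE 0.15, adjusted p = 0.00407), where 29.1% of 14288 genes were called. It was -0.30 for Mt3 (SE 0.20, edgeR adjusted p = 0.255), against 0.82 within astroglia, and neither was called. The call of Mt2 was lost without PN1 (0.96) and without 3m2 (0.90), where the change fell below 1. In such sums, fewer cells of a type and less RNA per cell cannot be told apart.

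The classes contributed differently at the 2 ages. Astroglia held 54.2%, 70.4%, 23.6% and 32.8% of all UMIs in PN1, PN2, 3m1 and 3m2, and oligodendrocytes held 58.3% and 54.6% at 3m against at most 0.580% before. Astroglia still supplied 79.2%, 91.0%, 71.2% and 83.2% of the Mt1 UMIs and 87.9%, 93.6%, 74.6% and 87.7% of the Mt3 UMIs. Oligodendrocytes supplied 12% and 9.14% of the Mt1 UMIs at 3m. Ependymal cells, no more than 2.63% of all UMIs, supplied between 1.15% and 9.81% of the Mt1 UMIs. The upper end is that of PN1, where 1 of 4 ependymal cells held 60.9% of the class's Mt1 UMIs.

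Genes of metal and stress handling were examined around the members in astroglia, where the median log2 fold change of all tested genes was 0.00. Of 19 tested genes of zinc transport and sensing, 4 rose and 2 fell, with a median of 0.25. These and the counts of the lists that follow stand beside 26.2% of all genes called in astroglia and 14.3% called higher. The zinc importer Slc39a12 rose by 3.13 on the log2 scale (87.3, 29.2, 402 and 434 CPM in the library order used above), and Slc39a14 (1.42), Slc30a6 (1.18) and Slc39a9 (1.06) rose too. The importers Slc39a8 (-2.39) and Slc39a6 (-1.08) fell. At 3m Slc39a8 stood at 1.29 and 1.53 CPM, where a count of 0 allows up to 1.29 and 1.15 CPM. Mtf1, which encodes the zinc sensor of Mt1 and Mt2, and Slc30a1, a zinc exporter known as its target, were picked for that role with their values known. Mtf1 had a log2 fold change of -0.79 (edgeR adjusted p = 0.0659) and Slc30a1 one of 0.85 (adjusted p = 0.0166), and neither was called.

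Of 11 tested genes of copper handling 2 rose and 0 fell, with a median of 0.28: Sco2, a copper chaperone of cytochrome oxidase (1.56), and Atp7a, a copper pump (1.23). Of 8 genes of iron handling 2 rose and 0 fell, with a median of 0.49: Slc40a1, the iron exporter ferroportin (3.52), and Trf, transferrin (5.46). Slc40a1 stood at 0.264, 0.378, 3.45 and 3.44 CPM and Trf at 0.527, 0.881, 35.0 and 21.8 CPM. A count of 0 allows up to 0.791 CPM in PN1 and 0.378 CPM in PN2. The early postnatal values of both genes lay near that limit, and the size of the changes rests on them. Trf is in brain known from oligodendrocytes, whose 9 markers summed to 16.3 and 15.1 CPM in early postnatal astroglia and 776 and 653 CPM at 3m. Of 14 antioxidant genes 3 rose and 1 fell, with a median of 0.44. Gstm1, a glutathione transferase (1.73), Hmox1, haem oxygenase (1.34), and Prdx1, a peroxiredoxin (1.04), rose and Txn1, thioredoxin (-1.31), fell.

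Of 12 tested genes of the glucocorticoid response 3 rose and 2 fell, with a median of 0.17. Sult1a1 (4.61), Zbtb16 (2.94) and Tsc22d3 (1.21) rose, and Dusp1 (-1.99) and Ddit4 (-1.13) fell. Zbtb16 was scarce, at 0.791, 1.13, 6.47 and 6.50 CPM. Of 16 tested immediate early and heat shock genes 0 rose and 13 fell, with a median of -3.53. Fos fell from 2498 and 1571 CPM to 70.8 and 11.1 CPM, Junb by a log2 fold change of -5.48 and Socs3 by -7.16. Atf3, at 8.70 and 6.55 CPM before, had 0 UMIs in both 3m libraries, which allows up to 1.29 and 1.15 CPM. Of the 4 haemoglobin genes 1 could be tested in astroglia, and it was not called.

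The genes whose levels most resembled those of the members were found over the 17 class-by-library sums of at least 20 cells, among 3728 genes with a mean of at least 50 CPM. Likeness was Pearson's r on log2(CPM + 10), given as a description over sums that share 4 libraries. Mt1 was closest to Mt2 (0.94), followed by Add3, a membrane skeleton protein (0.93), Ctso, a cathepsin (0.92), Dnajb9, a chaperone of the endoplasmic reticulum (0.90), and Fam107a (0.88). Mt2 was closest to Mt1, then to Ctso (0.90), Fam107a (0.88), Msi2, an RNA-binding protein (0.87), and Mgst1, a microsomal glutathione transferase (0.87). Mt3 was closest to Baalc (0.97), Slc1a2, the main astrocytic glutamate transporter (0.96), and Pts, an enzyme of tetrahydrobiopterin synthesis (0.96). Slc6a11, a GABA transporter (0.96), and Ntrk2, the receptor of BDNF (0.96), came next. Slc1a2 is also a marker of the astroglia gate, which favours its likeness to genes high in astroglia. Mt3 took place 58 in the ranking for Mt1, with an r of 0.73.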

How the data were processed

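The deposited table holds raw UMI counts per gene and cell for 4 libraries. Per the labels, the authors aligned reads of the 10x Genomics 3ʹ assay to mm10 with Cell Ranger, and Seurat 3.1.1 is listed too. Counts as deposited were used here, with the study's cell filters and no column left out. Each column name shows its library but not its run, so the 12 runs count as 4 libraries, 2 per age, which hold part of the study's preparations.

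The members and gene lists were chosen with earlier results of these data known. Cells were assigned to the class with the highest marker score, given at least 3 detected markers and a lead of 0.1, a rule set after the table had been seen. Counts were summed per class and library of at least 20 cells and tested with edgeR 4.0.16 (R 4.3.3; TMM scaling, filterByExpr, quasi-likelihood test, Benjamini-Hochberg adjustment over all genes tested). Classes were compared with the library as a term. Calls needed an adjusted p no higher than 0.05 and a log2 fold change of 1 or more in size. Named beside the members were, from lists of zinc, copper, iron, antioxidant, glucocorticoid, early and heat shock, and haemoglobin genes, up to 4 called genes in each direction with the largest change in astroglia, and the 5 genes with the highest Pearson r to each member. On simulated astroglia counts of 11649 genes, the test called 86.2% of genes changed 4-fold, 18.2% of genes changed 2-fold and 0.0984% of unchanged genes. On endothelial counts of 8636 genes these shares were 78.5%, 28.8% and 0.1%. In the astroglia simulation 65 genes were changed 4-fold and 66 genes 2-fold, up and down alike. The rates need not hold for the data, where 26.2% of astroglia genes were called.

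Detection used cells thinned to 2000 UMIs, with exact (Clopper-Pearson) 95% intervals. Where a count was 0, up to 3 counts were allowed for. Scrublet in Scanpy 1.11.5 scored doublets, and the expected number of cells with the highest scores (3, 4, 16 and 7 in PN1, PN2, 3m1 and 3m2, ties included) was left out in an alternative. Other alternatives were DESeq2 1.42.0, no scaling factor, no filter on low counts, other cell filters, a stricter gate, no library term, a replicate block and leaving out each library. Leaving out haemoglobin-carrying cells was added after seeing the data. Sequences were read from GRCm38 with GENCODE and RefSeq annotation and compared with Biopython 1.88. Protein sequences were not used here.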

Additional observations from a re-analysis of the deposited data

Results flagged for a closer look

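The change of Mt1 and Mt2 with age differed between endothelial cells and astroglia by the test of that difference itself, with log2 differences of 1.56 and 1.91. The values of each class and the settings that end the calls stand above.

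Metallothionein transcripts also appeared in the barcodes that the cell filters left out of all comparisons, above the limit of 3 counts in each library. Mt1 stood there at 543 CPM in PN1, 440 in PN2, 3602 in 3m1 and 5361 in 3m2, so the ages were ordered as in the kept cells. Mt2 stood at 103, 66.7, 381 and 691 CPM in the same order, again with both 3m libraries above. Mt3 stood at 2797, 2691, 4368 and 5937 CPM, with both 3m libraries above in this sum. In the barcodes under 500 genes alone the ages overlapped for Mt3, with 1923, 6971, 2352 and 6795 CPM. Over whole kept libraries its log2 fold change was -0.30 (edgeR adjusted p = 0.255), which was not called. At 3m most UMIs left out came from barcodes with at least 500 genes and over 10% mitochondrial UMIs, where Mt1 had 3962 CPM in 3m1 and 5263 CPM in 3m2.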

How the results depend on the processing

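Of 300 values of Mt1, Mt2 and Mt3 recomputed for 26 results, 283 kept their direction and their side of the threshold, 11 lost a call, 4 gained one and 2 reversed. In astroglia, Mt1 ranged from 2.76 to 3.35 and Mt2 from 1.97 to 2.62 on the log2 scale over 9 settings that kept all libraries, and in endothelial cells from 4.41 to 4.75 and 3.97 to 4.71. Leaving out 1 library gave -0.10 to 1.01 for mural Mt1, -2.51 to 2.38 for mural Mt3 and 0.90 to 1.20 for Mt2 over whole libraries. It gave 4.12 to 5.24 for endothelial Mt1 and 3.68 to 4.93 for endothelial Mt2. For the endothelial minus astroglia difference it gave 1.06 to 2.02 for Mt1 and 1.36 to 2.57 for Mt2. A call of Mt3 was gained in astroglia under the stricter gate (1.05) and in mural cells with no filter on low counts (-1.73). Calls were lost for Mt2 over whole libraries with no scaling factor (0.90), for its endothelial minus astroglia difference in DESeq2 (1.91), and, with no library term, for endothelial cells against astroglia (-2.93 for Mt1, -2.67 for Mt2) and OPC against astroglia (-4.97, -4.67 and -3.98). The cause was not tested.

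The 3m minus postnatal share of cells with a UMI, in percentage points, moved with no thinning in astroglia to 3.33 for Mt1 (from 15.1) and 18.1 for Mt2 (from 45.7), in endothelial cells to 23.1 for Mt1 (from 72.5) and -27.1 for Mt3 (from 5.94), and in mural cells to -0.62 for Mt2 (from 3.30) and -12.7 for Mt3 (from 3.03). Mural Mt1 turned from 5.89 to -1.001 with no thinning and -2.41 with a threshold of 3 UMIs, and mural Mt3 to -1.25 with that threshold. With a threshold of 3 UMIs it moved in astroglia to 54.5, 34.1 and 0.0952 for Mt1, Mt2 and Mt3, and in endothelial cells to 46.7, 7.23 and 1.02.

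Calls over all genes numbered 3057 in astroglia, 1363 without 3m1, 973 without 3m2 and 1943 under the stricter gate. They numbered 1514 in endothelial cells (1000 in DESeq2), 465 in mural cells (795 with no filter, 183 in DESeq2), 1650 for OPC (838 in DESeq2, 639 with no library term) and 1644 for the endothelial minus astroglia difference (568 in DESeq2, 900 without 3m1, 1097 without 3m2). With no scaling factor the median change of all astroglia genes was -0.28 and 1208 were called higher and 2183 lower, against 1670 and 1387. In endothelial cells these were 0.18, 1040 and 545, against 792 and 722. The splits for OPC and mural cells against astroglia and for the endothelial minus astroglia difference stand with those results. Equally numbered libraries did not deviate together (correlation 0.055), and a fit with the replicate block changed no call of a member, with 3.04 for Mt1 in astroglia and 1.90 over whole libraries. The stricter gate left under 20 endothelial, mural and OPC cells in at least 1 of the libraries compared and was not run there. No test without 1 library could be had for OPC and oligodendrocytes. Depth limits Mt2 and Mt3 in mural and endothelial cells, where sums held from 0 to 207 UMIs.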

Other observations

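Fibroblast-gated cells, which in brain line larger vessels and the meninges, were too few to be compared but gave UMIs of both inducible genes. In 3m1 7 cells gave 17 UMIs of Mt1 (724 CPM) and 4 of Mt2 (170 CPM), and in 3m2 8 cells gave 24 UMIs of Mt1 (567 CPM) and 19 of Mt2 (449 CPM). The fibroblast-gated cells detected a median of 3 of the 11 astroglia markers, and the part of astroglial RNA in these counts was not tested. These sums rest on few cells: the cell with the most UMIs of a gene held 64.7% of the Mt1 and 75% of the Mt2 UMIs in 3m1, and 41.7% and 42.1% in 3m2.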
